A study of Mus musculus with 2 samples.

Results

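Neutrophils that carried the transcripts of Retnlg and Mmp8 but few of the precursor genes Camp, Ngp and Ltf were examined in single-cell RNA sequencing (scRNA-seq) of mouse pancreatic tumors, 618 cells in the library of mice given PBS and 1018 in that of mice given cmExoaCD11b. They were 1636 of the 14022 barcodes that held at least 1000 unique molecular identifiers (UMIs, one per captured RNA molecule) and 200 genes with at most 20% mitochondrial UMIs. A barcode was a member when S100a8 and S100a9 made up at least 3% of its UMIs, Camp, Ngp and Ltf less than 1%, and Retnlg and Mmp8 at least 0.3%. It also had to hold fewer than 5 UMIs of the proliferation genes Mki67, Top2a, Ube2c, Birc5 and Stmn1, and at most 2 UMIs of Cd3e, Cd79a and C1qa, which mark T cells, B cells and macrophages. The members were thus chosen by the measured levels of these 15 genes, and their values are given as a description.

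Both groups were male C57BL/6J mice, 5 to 6 weeks old when obtained, with tumors grown from K210 cells placed in the pancreas, a line from pancreatic carcinoma of genetically engineered mice with Trp53 deleted in the pancreatic lineage. One group received PBS, and the other received cmExoaCD11b, fibroblast exosomes loaded with cGAMP (which activates STING, a sensor that turns on interferon genes) and IL-12 mRNA, and coated with an antibody to CD11b, at 5 µg of cGAMP per mouse. Immune cells were taken from the tumors 48 h after dosing, and each library is a pool of 3 mice. With 1 library per treatment, no test between treatments was possible, and every difference between the libraries below lacks a replicate check.

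Neutrophils leave the bone marrow as they mature and shift from making granule proteins of precursors, such as lactoferrin and cathelicidin (Ltf and Camp), to proteins of later granules, among them the collagenase encoded by Mmp8. Retnlg, which encodes a resistin-like secreted protein, is a gene of mature mouse neutrophils, and CD11b (Itgam) is an integrin that neutrophils carry on their surface. Neutrophils in tumors are known to switch on chemokine, cytokine and hypoxia genes, and interferons switch on antiviral genes in them as in most cells.

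Of the 6904 filtered PBS barcodes, 2737 passed the S100a8 and S100a9 threshold, 1504 of these were low in Camp, Ngp and Ltf, and 641 of these were high enough in Retnlg and Mmp8. The corresponding numbers in cmExoaCD11b were 7118, 3627, 1624 and 1046. The limits on proliferation and lineage UMIs then left the 618 and 1018 members. Retnlg and Mmp8 together took a median of 1.23% of a member's UMIs in PBS and 1.68% in cmExoaCD11b, and at most 9.77% and 8.80%. No gap in these values divided the members from the cells below the threshold. Between 0.3% and 0.4% lay 65 PBS and 69 cmExoaCD11b members (medians 0.339% and 0.344%), and 106 and 94 cells that met the other conditions lay between 0.2% and 0.3% (medians 0.247% and 0.245%). Members with 0.5% to 1% of Camp, Ngp and Ltf numbered 54 and 99, and 26 and 57 cells lay between 1% and 1.5%. For S100a8 and S100a9, 49 and 63 members lay between 3% and 4%, and 54 and 41 cells between 2% and 3%.

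**Figure D1:**
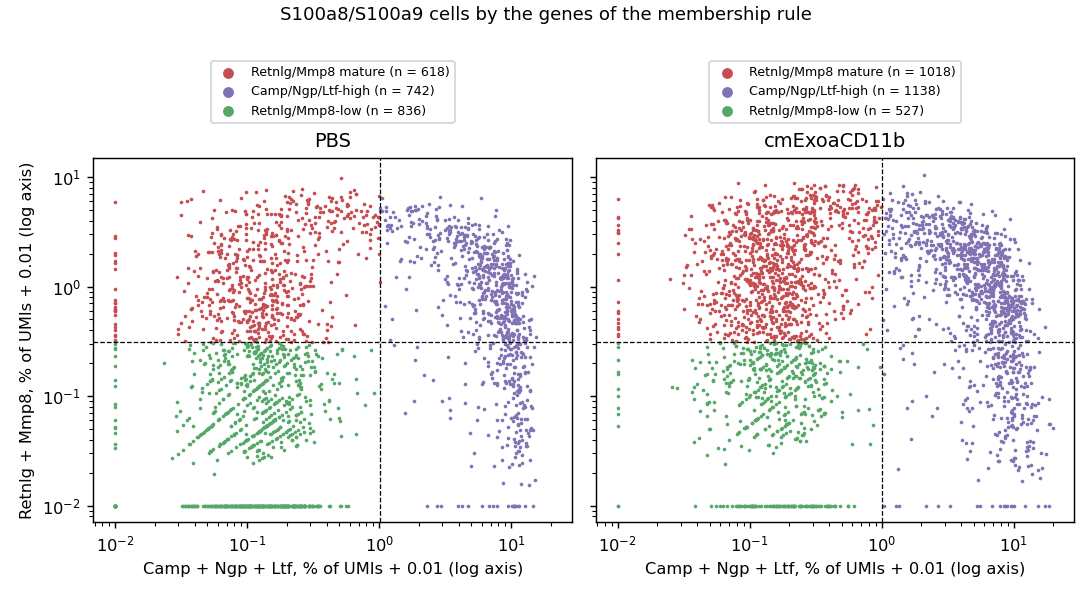
Each point is a barcode past the S100a8 and S100a9 threshold, by its percentage of UMIs on Camp, Ngp and Ltf (x axis, log) and on Retnlg and Mmp8 (y axis, log), for PBS (left) and cmExoaCD11b (right), with dashed lines at the thresholds of 1% and 0.3%. The 618 and 1018 mature cells fill the upper left and run without a gap into the 836 and 527 cells low in Retnlg and Mmp8.

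A pair of neighbouring classes served for comparison. Camp/Ngp/Ltf-high cells were S100a8 and S100a9 cells at or above the 1% threshold that met the same limits on proliferation and lineage UMIs (742 in PBS and 1138 in cmExoaCD11b), and Retnlg/Mmp8-low cells differed from the members only in lying under 0.3% (836 and 527). The members held 3001383 UMIs in PBS and 4787558 in cmExoaCD11b. Their median depth was close in the libraries, at 4000.5 and 3810 UMIs and 1157 and 1181 genes per cell, with a median of 0.257% and 0.2999% mitochondrial UMIs. The Camp/Ngp/Ltf-high cells were deeper, at medians of 13155 and 11091.5 UMIs, and the Retnlg/Mmp8-low cells shallower, at 3108 and 2473. When each cell was thinned to 1000 UMIs, members held a median of 461 and 485 genes, against 412.5 and 450.5 in Camp/Ngp/Ltf-high cells and 489 and 501 in Retnlg/Mmp8-low cells. The libraries shared 15 filtered barcodes, of which 0 were members.

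The name of mature neutrophils was checked with Ly6g, Fpr1 and Asprv1, which the rule did not use. At 1000 UMIs per cell, 33.3% of PBS and 34.7% of cmExoaCD11b members held no UMI of any of the 3 genes, against 61.6% and 62.6% of Retnlg/Mmp8-low cells and 85.0% and 89.3% of cells under the S100a8 and S100a9 threshold. Without thinning, 12.8% and 14.6% of members lacked all 3. Ly6g, which encodes the surface protein used to identify mouse neutrophils, was found in 17.3% of PBS and 22.4% of cmExoaCD11b members at this depth (39.2% and 46.6% without thinning). In Retnlg/Mmp8-low cells its share was 1.79% and 2.28%, against 1.58% and 1.2% in cells under the S100a8 and S100a9 threshold, which should lack it. Fpr1, the receptor for formylated bacterial peptides, was found in 20.4% and 26.9% of members, and the protease gene Asprv1 in 54.7% and 40.9%. Camp/Ngp/Ltf-high cells lacked all 3 in 31.1% and 35.8% of cells, close to the members. Singly the genes differed between these classes, with Ly6g at 0.434 and 0.702 of the Camp/Ngp/Ltf-high level in members, Asprv1 at 2.6 and 1.85 times it and Fpr1 at 1.37 and 1.39 times it.

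Genes that define other cells were scarce, with some exceptions that moved with the library. Levels are given as counts per 1000000 UMIs of the class (CPM), with 1 UMI per molecule whatever the length of the transcript. The 7 epithelial tumor genes summed to 21.3 CPM in PBS and 8.15 CPM in cmExoaCD11b, led by Krt18, with Msln at 0 in both. The 7 stromal genes summed to 17 and 4.8 CPM, led by Col1a1, with Pdgfra and Cdh5 at 0 in both. The 8 T cell genes, led by Il7r, summed to 27 and 51.4 CPM, and the 5 natural killer genes, led by Gzma, to 8.66 and 37.2 CPM. The 7 dendritic cell genes, led by Cd74, were level at 121 and 125 CPM, and the 7 genes of eosinophils, basophils and mast cells, led by Kit, summed to 5 and 14 CPM.

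Larger sums came from B cell, monocyte, macrophage and erythroid genes. The 6 B cell genes summed to 235 CPM in PBS and 823 CPM in cmExoaCD11b, nearly all of it the immunoglobulin light chain Igkc (211 CPM in PBS and 792 CPM in cmExoaCD11b), with 39.7% of its cmExoaCD11b UMIs in 1 cell. In the barcodes of at most 100 UMIs, which hold free RNA rather than a cell, Igkc stood at 7650.5 and 15483 CPM. The 8 macrophage genes summed to 416 and 303 CPM, led by the lipid carrier Apoe (207 CPM in PBS and 128 CPM in cmExoaCD11b, against 3699 and 511 CPM in the empty barcodes). The 6 monocyte genes summed to 316 and 535 CPM, led by Ly6c2. Erythroid and platelet genes summed to 86.6 CPM in PBS and 1069.9 CPM in cmExoaCD11b, led by the beta-globin Hbb-bs. Among the members Siglech and Epx had no UMI in either library, Ms4a1, Klrb1c, Xcr1, Fcer1a and Alas2 none in PBS, and Ppbp none in cmExoaCD11b. Their part in the results below was not tested, beyond the values given without the members that carried such a UMI.

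The members made up a larger share of the cmExoaCD11b library. They were 8.95% of filtered barcodes in PBS (95% Clopper-Pearson interval 8.29% to 9.65%) and 14.3% in cmExoaCD11b (13.5% to 15.1%), a ratio of 1.60 (exact conditional interval 1.44 to 1.77). All intervals cover counting error only. The whole S100a8 and S100a9 compartment was larger as well, at 39.6% and 51.0% of filtered barcodes. Within that compartment the members were 22.6% in PBS (21.02% to 24.2%) and 28.1% in cmExoaCD11b (26.6% to 29.6%), a smaller ratio of 1.24 (1.12 to 1.38). Camp/Ngp/Ltf-high cells also held a larger share, 10.7% and 16.0% of filtered barcodes, with a ratio of 1.49. Retnlg/Mmp8-low cells held a smaller one, 12.1% and 7.40%, with a ratio of 0.611 (0.547 to 0.683). Because Retnlg and Mmp8 levels decide between the members and the Retnlg/Mmp8-low cells, a difference in share and a difference in these transcripts per cell cannot be told apart.

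**Figure D2:**
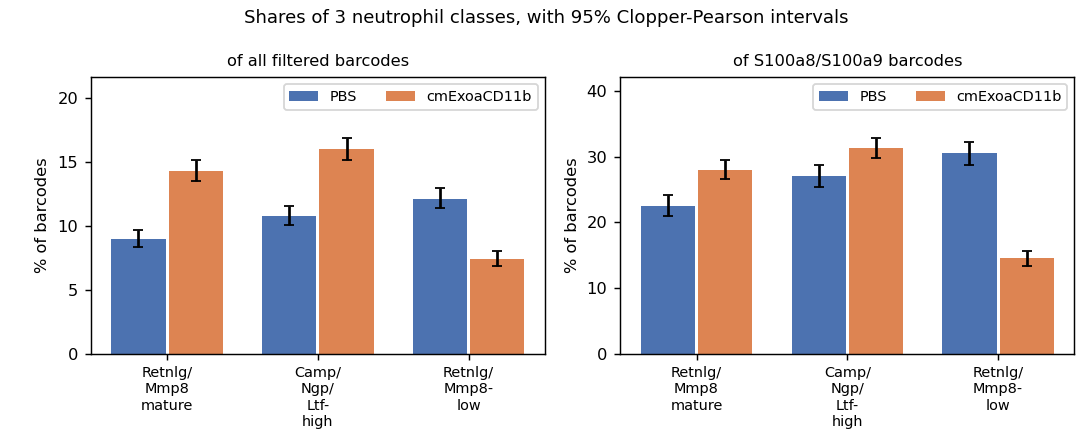
Bars give the percentage of all filtered barcodes (left) and of S100a8 and S100a9 barcodes (right) in each of 3 neutrophil classes, in PBS (blue) and cmExoaCD11b (orange), with Clopper-Pearson 95% intervals. The mature cells went from 8.95% to 14.3% of all barcodes and from 22.6% to 28.1% of S100a8 and S100a9 barcodes, while the Retnlg/Mmp8-low cells were at 12.1% and 7.40% of all barcodes.

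The genes with the most UMIs in the members outside the rule were Fth1, Cxcl2, Tmsb4x, Malat1, H3f3b, Srgn, Actb, Cebpb, G0s2 and Ftl1. Cxcl2, a chemokine that attracts neutrophils through the receptor CXCR2, stood at 23621 CPM in PBS and 19691 CPM in cmExoaCD11b. The ferritin heavy chain Fth1 stood at 26817 and 19270.4 CPM. Retnlg, which the rule used, took 23881 CPM in PBS and 24756 CPM in cmExoaCD11b, whereas Mmp8 took 977 and 1795 CPM and was the more different of the pair (1.84-fold). Transcripts of the primary granules, which promyelocytes make, were low, with the elastase gene Elane at 28.3 and 45.3 CPM against 801 and 1252 CPM in empty barcodes, and Bpi at 0 in both libraries. Of the secondary granule genes outside the rule, Lcn2, which encodes an iron-siderophore binding protein, kept 5146 and 4918 CPM.

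Beside the Retnlg/Mmp8-low cells of the same tumors, the members carried more of Ly6g and of some neutrophil identity genes and less of some cytokine, chemokine and survival genes, while most genes of these lists were within 2-fold. Among 5705 genes outside the rule with at least 50 UMIs in both classes together in each library, 1.95% (111 genes) were at least 2-fold higher in members in both libraries and 3.37% (192 genes) at least 2-fold lower. With cells thinned to 1000 UMIs, 47 genes were higher and 80 lower, of a smaller total that was not recorded. Without the members that carried a UMI of another cell type's marker, 92 were higher and 305 lower, of a total also not recorded. The rule that divides the classes fixes part of this difference, so it is a description. Ranked by the smaller of the ratios in the 2 libraries, Ly6g led the higher genes, at 14.8-fold in PBS and 15.4-fold in cmExoaCD11b. In a single library Gpr27 (72.6-fold in PBS) and 1700047M11Rik (33.9-fold in cmExoaCD11b) had larger ratios, each over 0 UMIs in the Retnlg/Mmp8-low cells. The receptors S1pr4 and Gpr27 and the transcription factor Fosl1 (6.18 and 6.51-fold) were among the 10 highest. Of the 14 neutrophil identity genes, 4, Ly6g among them, were past 2-fold higher and 0 lower, and Il1r2 (0.743 and 1.06-fold) and Csf3r (1.16 and 0.896-fold) were near level. Pglyrp1, a granule protein that binds peptidoglycan, stood 7.18 and 3.19-fold higher, and Wfdc21 3.61 and 3.17-fold. The formyl peptide receptor ligand Anxa1 was 4.25 and 2.26-fold higher, and Lcn2 4.15 and 2.23-fold.

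The lower genes included cytokine and survival genes. The counts that follow stand beside 3.37% lower and 1.95% higher of all 5705 genes. Of 16 inflammatory cytokine and NF-kB feedback genes, 5 were past 2-fold lower in members in both libraries and 0 higher, and of 11 chemokine and chemokine receptor genes 3 were lower and 0 higher. The macrophage-attracting chemokine Ccl3 was at 0.274 of the Retnlg/Mmp8-low level in PBS and 0.254 in cmExoaCD11b, Tnf at 0.268 and 0.387, Il1a at 0.338 and 0.309, and the adhesion ligand Icam1 at 0.288 and 0.33. The anti-apoptotic genes Bcl2a1a, Bcl2a1b and Bcl2a1d, near-identical copies whose counts may be split among them, were all among the 10 lowest, together with Gpnmb, Inhba and Hbegf. Of 14 survival genes 4, these 3 copies and Bax, which promotes cell death, were lower and 0 higher, and of 12 adhesion genes 2 were lower and 1 higher. Of 19 glycolysis and hypoxia genes, 4 were lower and 1, the glucose transporter Slc2a3, higher (2 and 2.05-fold). The lipid droplet protein gene Hilpda was at 0.43 and 0.382, and Mif at 0.341 and 0.35. Of 31 interferon-stimulated genes 1 was lower (Cxcl10) and 0 were higher, a share close to that of all genes, with a median log2 ratio of -0.64 in PBS and -0.15 in cmExoaCD11b beside -0.23 and -0.19 for all genes.

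Against the Camp/Ngp/Ltf-high cells the members carried less of the secondary granule genes and more of chemokine, cytokine and interferon-stimulated genes. Camp, Ngp and Ltf are themselves secondary granule genes, so the rule fixes part of this difference. Among 7460 genes, 8.08% (603) were at least 2-fold higher in both libraries and 6.85% (511) lower. Secondary granule genes outside the rule were lower for 4 of 6, with Lcn2 at 0.25 and 0.244 and Chil3, a chitinase-like protein, at 0.0581 and 0.0968 of the Camp/Ngp/Ltf-high level. The granule gene activator Cebpe was at 0.111 and 0.0638. In the other direction, 9 of 12 chemokine and chemokine receptor genes, 9 of 17 inflammatory genes and 18 of 30 interferon-stimulated genes were past 2-fold higher. Of 7 macrophage genes 3 were past 2-fold higher as well and 0 lower. Their median log2 ratio was 1.54 in PBS and 1.62 in cmExoaCD11b, beside 1.54 and 1.43 for the interferon-stimulated list. The part of macrophage transcripts and of the unequal depth in these differences was not tested. Il1b, which encodes a secreted inflammatory cytokine, stood 10.3 and 5.01-fold higher, the chemokine gene Ccl6 12.5 and 5.74-fold, the chemokine receptor Cxcr1 10.02 and 6.03-fold, and the G-CSF receptor Csf3r 5.32 and 3.65-fold. Steap4 (18.1 and 8.1-fold), Wfdc17 (18.6 and 6.88-fold) and Ifitm1 (13.3 and 5.97-fold) were also among the 10 highest.

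Between the treatments, the members of the cmExoaCD11b library carried more transcripts of interferon-stimulated, interferon-inducible GTPase and antigen presentation genes, and fewer of glycolysis, hypoxia and stefin genes. Among 6429 genes outside the rule with at least 50 UMIs over both libraries' members, 6.11% (393 genes) were at least 2-fold higher in cmExoaCD11b and 1.37% (88 genes) at least 2-fold lower, with 1 UMI added to each library. For all of these the counting interval of the ratio lay on the same side of 1, which the 2-fold threshold and the minimum of 50 UMIs fix in advance. The median log2 ratio over all 6429 genes was 0.13 (quartiles -0.16 and 0.43). Scaling to the median gene instead gave 289 higher and 147 lower. Of the higher genes 7, and of the lower genes 6, had at least 50% of the UMIs of their higher library in 1 cell. Without the members that carried a UMI of a defining marker of another cell type, which left 357 and 712 cells, 261 genes were higher and 109 lower.

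**Figure D3:**
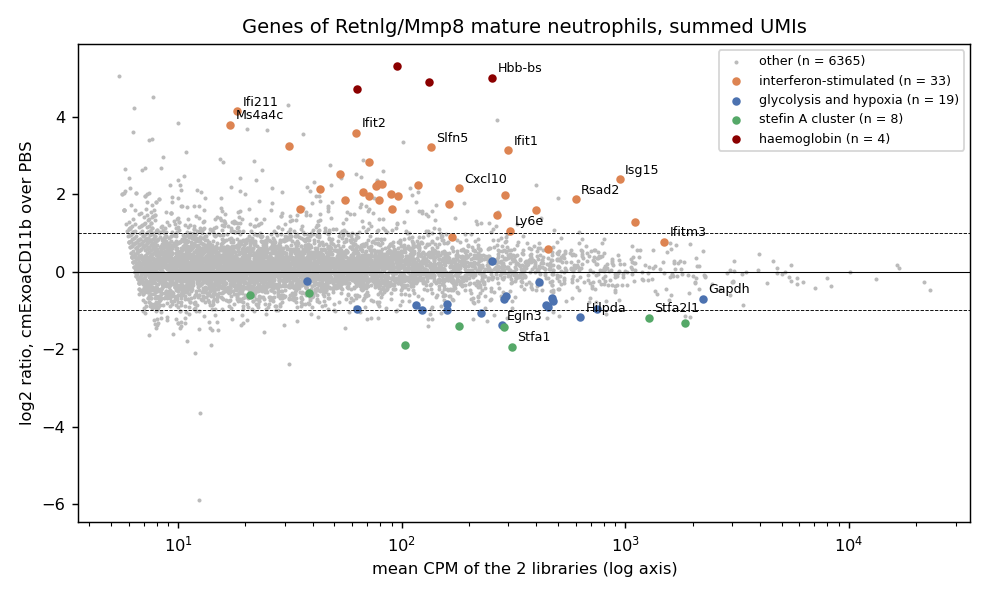
Each point is 1 of 6429 genes in the mature neutrophils, by its mean CPM over the 2 libraries (x axis, log) and its log2 ratio of cmExoaCD11b over PBS (y axis), with dashed lines at 2-fold. The interferon-stimulated genes (orange, 33) lie above 0 with 30 past 2-fold, the glycolysis and hypoxia genes (blue, 19) lie below 0 except Hif1a, the stefin genes (green, 8) lie below 0, and the 4 haemoglobin genes (dark red) are among the 5 highest.

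Of the 35 interferon-stimulated genes, 33 were abundant enough to be considered, 30 of these were at least 2-fold higher in cmExoaCD11b, beside 6.11% of all genes, and 0 were lower. All 33 had a ratio above 1, with a median log2 ratio of 2.02. Isg15, a ubiquitin-like protein that is attached to other proteins in the interferon response, stood at 303 CPM in PBS and 1583 CPM in cmExoaCD11b (5.23-fold, 95% interval 4.88 to 5.61). Thinned to 1000 UMIs, 18.4% of PBS and 53.9% of cmExoaCD11b members held an Isg15 UMI (36.2% and 79% without thinning). The gene is not specific to neutrophils, and its share in cells under the S100a8 and S100a9 threshold was 19.4% and 37%. In empty barcodes its level was 214 and 469.5 CPM, below the level in members in both libraries.

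The genes of the Ifit family, whose proteins bind viral RNA, were also higher in cmExoaCD11b. Ifit1 stood at 61 CPM in PBS and 537 CPM in cmExoaCD11b (8.77-fold, 95% interval 7.58 to 10.3), and 4.37% and 28% of members held a UMI of it at equal depth. Ifit2 stood at 9.33 and 116 CPM (12-fold), Ifit3 at 27 and 126 CPM (4.61-fold) and Ifit3b at 5.66 and 56.8 CPM (9.51-fold), and the last pair may share reads. Rsad2, the antiviral enzyme viperin, stood at 259 CPM in PBS and 943 CPM in cmExoaCD11b (3.64-fold, 95% interval 3.38 to 3.94). The oligoadenylate synthetase genes, which sense double-stranded RNA, and their relatives were all past 2-fold, with Oas3 at 4.05-fold, Oas1a at 4.4-fold, Oasl1 at 3.35-fold and Oasl2 at 2.77-fold.

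The T cell attracting chemokine Cxcl10 stood at 65.6 CPM in PBS and 295 CPM in cmExoaCD11b (4.48-fold, 95% interval 3.87 to 5.25), and its UMIs came from few members, 4.05% and 6.88% at equal depth. In empty barcodes Cxcl10 was higher than in the members, at 491 and 662 CPM. Irf7, the transcription factor that amplifies interferon production, stood at 44.3 CPM in PBS and 137 CPM in cmExoaCD11b (3.07-fold, 95% interval 2.56 to 3.75). Usp18, which removes Isg15 from proteins and dampens interferon receptor signalling, differed 3.85-fold, and Zbp1, a sensor of nucleic acids in the Z form, 3.9-fold. Slfn4 and Slfn5, of the Schlafen family, stood at 1559 and 244 CPM in cmExoaCD11b (2.43 and 9.26-fold), and the DNA-binding Ifi211 went from 5 UMIs to 168 (17.7-fold). Only Ifitm3 (1095 CPM in PBS and 1879 CPM in cmExoaCD11b, 1.72-fold), Isg20 (1.86-fold) and Slfn1 (1.51-fold) of the 33 genes remained under 2-fold. Ifi213 and Ifi206, of the same family as Ifi211 and not on the list, were among the 10 highest ratios of all genes, with 0 and 52 UMIs and with 1 and 59 UMIs (18.8-fold, 95% interval 6.39 to 1485).

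Summed over the list, the members held 4094 CPM in PBS and 11949.7 CPM in cmExoaCD11b (2.92-fold, 95% interval 2.86 to 2.98). The Camp/Ngp/Ltf-high cells were at 2595 and 6040.3 CPM, the Retnlg/Mmp8-low cells at 5242 and 13022 CPM, and the empty barcodes at 3526 and 6659 CPM. The list was thus higher in cmExoaCD11b in all 3 neutrophil classes and in the free RNA, and the difference in the members is not particular to them. Cell by cell, it took a median of 0.279% of a member's UMIs in PBS and 0.912% in cmExoaCD11b, and at 1000 UMIs the members without any UMI of the list were 11.2% in PBS and 2.16% in cmExoaCD11b. The third quartile of PBS members, 0.455%, lay below the first quartile of cmExoaCD11b members, 0.492%, and the libraries overlapped in their tails, with the 90th percentile of PBS at 0.829% and the 10th of cmExoaCD11b at 0.293%. Without the members that carried another cell type's marker, 28 of the list's genes were past 2-fold with a median log2 ratio of 1.88.

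**Figure D4:**
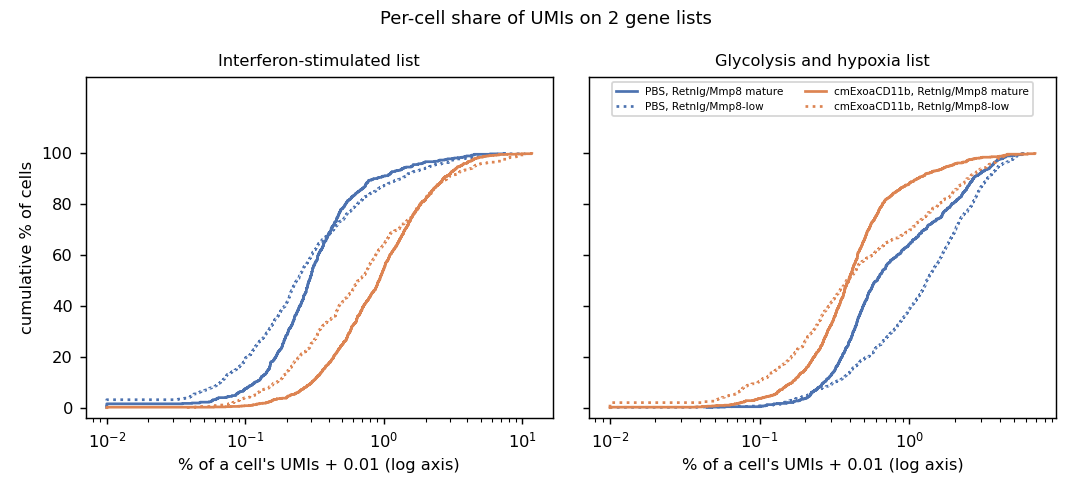
Curves give the cumulative percentage of cells (y axis) by the percentage of a cell's UMIs on the interferon-stimulated list (left) and on the glycolysis and hypoxia list (right; x axes log, 0.01 added), for PBS (blue) and cmExoaCD11b (orange), with mature neutrophils solid and Retnlg/Mmp8-low cells dotted. In the mature cells the whole interferon curve lies further right in cmExoaCD11b, with medians of 0.279% and 0.912%, and the glycolysis curves part mainly in the cells richest in these transcripts, where the third quartile is 1.62% in PBS and 0.584% in cmExoaCD11b.

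The promoters of these genes are shown because interferon is known to act on many such genes through the interferon-stimulated response element, a DNA motif bound by STAT and IRF proteins. The letters GAAA, any 2 bases and GAAA again were searched on either strand, overlapping matches included, in the RefSeq promoters of mouse build GRCm38.p6, from 250 bases before to 50 bases after each start. They occur in 3.44% of 32851 promoters and in 16 of 33 promoters (48.5%) of the 29 listed genes that matched by symbol. In 4 of the genes described above, Isg15, Ifit1, Ifit3 and Rsad2, the stretch with the motif reads as follows, on the gene's strand, with capitals for the bases that match the letters on either strand.
Isg15, chr4:156200855-156200916 (minus strand): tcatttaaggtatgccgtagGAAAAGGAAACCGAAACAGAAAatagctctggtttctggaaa
Ifit1, chr19:34640765-34640833 (plus strand): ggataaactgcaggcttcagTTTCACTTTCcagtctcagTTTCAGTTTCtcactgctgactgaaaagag
Ifit3, chr19:34583353-34583436 (plus strand): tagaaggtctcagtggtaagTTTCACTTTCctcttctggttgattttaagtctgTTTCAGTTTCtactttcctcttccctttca
Rsad2, chr12:26456533-26456592 (minus strand): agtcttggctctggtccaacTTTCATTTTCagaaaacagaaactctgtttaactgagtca
The matches in Isg15 lie 57 to 78 bases before the start and overlap each other, those in Ifit1 76 to 104 and in Ifit3 113 to 156 bases before it, and that in Rsad2 111 to 120 bases before it. A match says only that the letters are there, and promoters without them were not examined further.

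Genes of interferon signalling were higher for 4 of 15, beside 6.11% of all genes, and 0 were lower, beside 1.37%. Stat2 stood at 16.7 CPM in PBS and 90.03 CPM in cmExoaCD11b (5.31-fold, 95% interval 4.03 to 7.4) and its partner Irf9 at 35 and 108 CPM (3.07-fold). Irf8 was 2.24-fold higher, but was lower in cmExoaCD11b when cells were thinned to 1000 UMIs and when members with another cell type's marker were left out. The receptor genes were near level, with Ifnar1 at 0.977-fold, Ifnar2 at 1.07-fold and the gamma-interferon receptor gene Ifngr1 at 1.34-fold. The kinase gene Jak1 (1.53-fold), Irf1 (1.77-fold) and the feedback inhibitor Socs3 (1.09-fold) lay within 2-fold.

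The STING pathway itself was thinly covered, with 5 of 10 listed genes considered. Cgas, the DNA sensor that makes cGAMP, had 16 and 87 UMIs (3.25-fold, 95% interval 1.99 to 6.23). Tmem173, which encodes STING, had 2 and 20 UMIs in all members (4.39-fold, 95% interval 1.52 to 55.3). Its kinase Tbk1 was 1.15-fold, and Ifnb1, the interferon gene downstream of it, had 10 and 19 UMIs (1.14-fold, 95% interval 0.527 to 2.87). For Ifnb1 and other genes at this depth, the counts cannot show a difference of moderate size. Ccl5 was 1.41-fold, and 71.9% of its PBS UMIs came from 1 cell.

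Interferon-inducible GTPases and the machinery that presents antigen on MHC class I were also higher. Of the 10 genes considered among those of gamma interferon and GTPases, 7 were past 2-fold higher, beside 6.11% of all genes. Gbp3 differed 7.11-fold, Gbp7 5.16-fold, Gbp5 4.56-fold, Gbp2 3.93-fold, Irgm1 4.68-fold, Irgm2 3.91-fold and Igtp 3.88-fold, all members of the guanylate-binding and immunity-related families that act on the membranes around pathogens. Of the 14 listed genes 9 matched a promoter by symbol, and the same letters occur in 7 of their 10 promoters. Cxcl9, a chemokine of the list, was lower in cmExoaCD11b (26.3 CPM in PBS and 12.1 CPM in cmExoaCD11b), but 92.4% of its PBS UMIs came from 1 cell, and the direction turned without members that carried another cell type's marker or with S100a8 and S100a9 at 5% or more. Cd274, which encodes the checkpoint ligand PD-L1, stood at 381 CPM in PBS and 469 CPM in cmExoaCD11b (1.23-fold, 95% interval 1.14 to 1.32), and 26.7% and 29.2% of members held a UMI of it at equal depth.

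All 17 MHC class I genes had a ratio above 1, with a median log2 ratio of 0.86 beside 0.13 for all genes, and 8 were past 2-fold, beside 6.11%. The non-classical heavy chains H2-Q7 (5.49-fold), H2-Q6 (4.98-fold) and H2-T22 (3.58-fold), whose sequences are alike enough to share reads, differed most, followed by the peptide transporter Tap1 (3.22-fold) and the class I activator Nlrc5 (2.75-fold). Of the immunoproteasome subunits, Psmb9 and Psmb10 were 2.07 and 2.19-fold higher, and the ratio of Psmb10 fell below 1 without the members that carried another cell type's marker. The classical heavy chain H2-K1 stood at 575 CPM in PBS and 1035 CPM in cmExoaCD11b (1.8-fold, 95% interval 1.7 to 1.9) and the light chain B2m at 829 and 1309 CPM (1.58-fold), while H2-D1 was 1.2-fold. Summed over the list, members held 3709 CPM in PBS and 5669 CPM in cmExoaCD11b, and the empty barcodes held more, 5484 and 6287 CPM. The Camp/Ngp/Ltf-high cells were at 2577 and 3729 CPM and the Retnlg/Mmp8-low cells at 3706 and 5827 CPM. The difference is thus not particular to the members.

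Glycolysis and hypoxia genes were lower in the cmExoaCD11b members. Of 19 genes, 4 were past 2-fold lower, beside 1.37% of all genes, 0 were higher, and Hif1a alone had a ratio above 1 (229.6 CPM in PBS and 277 CPM in cmExoaCD11b). The median log2 ratio was -0.86. Egln3, a prolyl hydroxylase that acts on hypoxia-inducible factors and is itself induced by them, stood at 404 CPM in PBS and 155 CPM in cmExoaCD11b (0.385-fold, 95% interval 0.351 to 0.422). Hilpda, which blocks lipid breakdown in hypoxic cells, stood at 867 and 386 CPM (0.445-fold, 95% interval 0.419 to 0.473). The cytokine gene Mif (0.474-fold) and the mitophagy receptor Bnip3 (0.5-fold) completed the 4. Hilpda was found in 31.9% of PBS and 14.8% of cmExoaCD11b members at equal depth (51.5% and 28.8% without thinning), against 18.5% and 11.1% of Camp/Ngp/Ltf-high cells.

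The enzymes of glycolysis on the list differed by less than 2-fold, whereas Tpi1, a glycolytic enzyme outside the list and named after its value was seen, was past it (355 CPM in PBS and 163 CPM in cmExoaCD11b). Gapdh stood at 2738 CPM in PBS and 1693 CPM in cmExoaCD11b (0.618-fold, 95% interval 0.6 to 0.638), the lactate dehydrogenase gene Ldha at 986 and 503 CPM (0.51-fold) and the glucose transporter gene Slc2a1 at 0.643-fold. Summed over the list, members held 9882 and 5788 CPM (0.586-fold, 95% interval 0.576 to 0.595). The Retnlg/Mmp8-low cells went from 15976 to 8688 CPM, the Camp/Ngp/Ltf-high cells from 5929 to 4995 CPM and the empty barcodes from 9042 to 5141 CPM. Per cell, the median member had 0.595% of its UMIs on the list in PBS and 0.383% in cmExoaCD11b, and the third quartile was 1.62% and 0.584%, so the libraries differed most in their cells richest in these transcripts. Of the listed genes 18 matched a promoter by symbol. The core letters of the hypoxia response element, ACGTG on either strand, occur in 15 of their 24 promoters. They occur in 19.6% of all promoters and in 2 of 33 of the interferon-stimulated genes. The letters searched in the interferon-stimulated promoters occur in 0 of the 24.

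**Figure D5:**
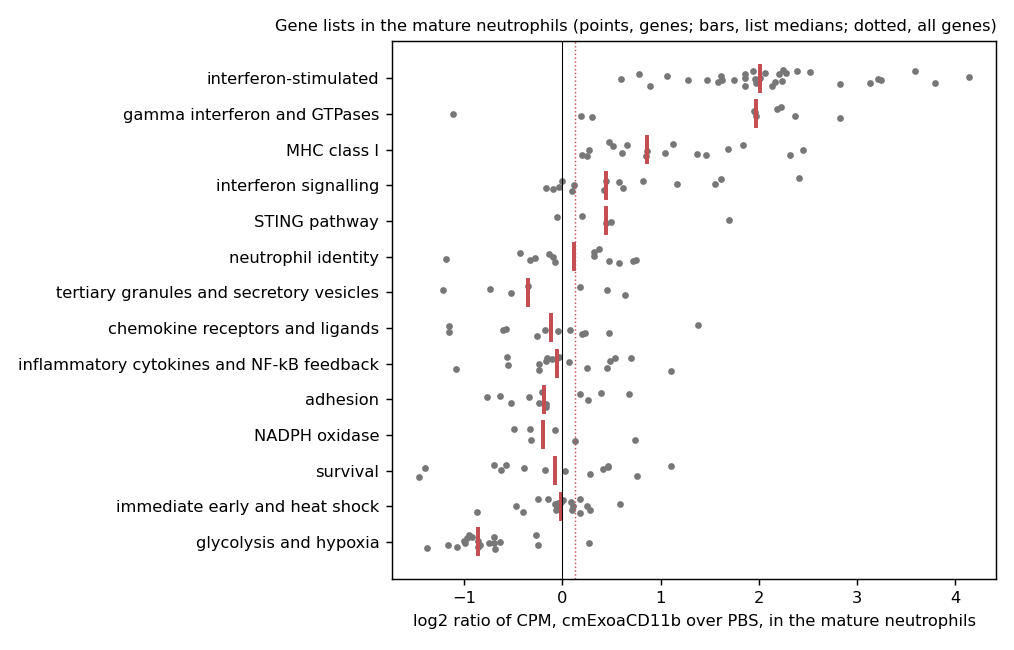
Each point is a gene of a list, by its log2 ratio of cmExoaCD11b over PBS in the mature neutrophils (x axis), with red bars at list medians and a dotted line at the median of all genes, 0.13. Of the lists drawn, the interferon-stimulated list lies furthest right at a median of 2.02 and the glycolysis and hypoxia list furthest left at -0.86, and the adhesion, NADPH oxidase, survival and immediate early lists lie near 0.

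A cluster of stefin genes, inhibitors of cysteine proteases that neutrophils express highly, was lower in cmExoaCD11b. This group was chosen after its values had been seen, from the leading lower genes Stfa1 and Csta2. Stfa1 stood at 492 CPM in PBS and 128 CPM in cmExoaCD11b (0.261-fold, 95% interval 0.237 to 0.287), Csta2 at 164 and 43.7 CPM (0.268-fold) and Cstdc4 at 2648 and 1057 CPM (0.399-fold). Stfa2l1, on the identity list, stood at 1766 and 777 CPM (0.44-fold), and 52.4% and 36.5% of members held a UMI of it at equal depth. In cells under the S100a8 and S100a9 threshold Stfa2l1 stood at 194.9 and 61.9 CPM. Of the 8 stefin genes considered 6 were past 2-fold lower, a count that the choice of the group helps to set, beside 1.37% of all genes, and Csta3 (0.659-fold) and Stfa3 (0.681-fold) were not. These are near-identical copies whose counts may be split among them, and the count for any one is uncertain. The Bcl2a1 copies, which block apoptosis, were lower as well, with Bcl2a1b at 191 and 72.3 CPM (0.38-fold) and Bcl2a1a at 0.364-fold. Bcl2a1d, at 0.618-fold, was within 2-fold. In empty barcodes Bcl2a1b stood at 440 CPM in PBS and 119 CPM in cmExoaCD11b, and Bcl2a1a at 127 and 35.5 CPM. These levels were above those of the members in both libraries. Bcl2a1b was also lower in the Camp/Ngp/Ltf-high (0.484-fold) and Retnlg/Mmp8-low (0.399-fold) cells of cmExoaCD11b. The part of free RNA in these ratios was not tested.

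Chemokine genes did not move together. Of 12 considered, 2 were past 2-fold lower, beside 1.37% of all genes, and 1 higher, beside 6.11%. The ligand gene Cxcl3 stood at 2560.5 CPM in PBS and 1149.7 CPM in cmExoaCD11b (0.449-fold, 95% interval 0.434 to 0.465) and Ccl6 at 2690.4 and 1207 CPM (0.449-fold). Cxcl2 was 0.834-fold, Ccl3 0.67-fold and Ccl4 1.15-fold. The receptor Cxcr2, through which Cxcl2 acts, stood at 474 CPM in PBS and 658 CPM in cmExoaCD11b (1.39-fold, 95% interval 1.3 to 1.48), and was found in 32.4% and 46.5% of members at equal depth. In empty barcodes Cxcr2 stood at 91.5 and 158 CPM, and in cells under the S100a8 and S100a9 threshold at 71.8 and 59.1 CPM. The bone marrow retention receptor Cxcr4 was 1.06-fold. Ccr2, the higher gene, is a monocyte receptor and also stands on the monocyte list described further on.

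Cytokine genes and their feedback inhibitors were mostly within 2-fold. Il1b stood at 5998 CPM in PBS and 5075 CPM in cmExoaCD11b (0.846-fold), Tnf was 0.681-fold, the decoy ligand Il1rn 0.675-fold and Osm 1.04-fold. Il1a, at 183 CPM in PBS and 86.1 CPM in cmExoaCD11b (0.472-fold, 95% interval 0.414 to 0.537), was the 1 lower gene of 17 (beside 1.37% of all genes) and Il6 the 1 higher (beside 6.11%), with 24 and 85 UMIs of which 77.6% of those in cmExoaCD11b came from 1 cell. The ratio of Il6 fell below 1 with S100a8 and S100a9 at 5% or more, with Retnlg and Mmp8 at 0.6% or more, and without the members that carried another cell type's marker. The NF-kB regulators Nfkbiz and Tnfaip3 were 1.62 and 1.4-fold. Of the subunits of IL-12, whose mRNA the exosomes carried, Il12a had 3 and 29 UMIs (4.7-fold, 95% interval 1.88 to 31.1) and Il12b 0 and 1 UMIs, so a difference in Il12b was not detectable at this depth. Whether any of these UMIs came from the delivered mRNA was not tested. Il10 had 3 and 19 UMIs (3.13-fold, 95% interval 1.17 to 20.9).

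Maturation and granule genes differed gene by gene. Of the 14 neutrophil identity genes 0 were past 2-fold higher and 1, Stfa2l1, lower, beside 6.11% and 1.37% of all genes. Ly6g stood at 329.5 CPM in PBS and 426 CPM in cmExoaCD11b (1.29-fold, 95% interval 1.2 to 1.4), Fpr1 at 259 and 353 CPM (1.37-fold) and Asprv1 at 1949.8 and 1176 CPM (0.603-fold). The repressor Mxd1 (1.64-fold), the histamine-forming enzyme gene Hdc (1.68-fold), the decoy receptor gene Il1r2 (1.49-fold) and Csf3r (1.25-fold) were above 1, and the lipolysis inhibitor G0s2 (0.741-fold) and the amplifying receptor Trem1 (0.795-fold) below. Among granule genes, the gelatinase Mmp9 stood at 1168 CPM in PBS and 703 CPM in cmExoaCD11b (0.602-fold, 95% interval 0.574 to 0.631), the membrane protease gene Mmp25 at 98 and 42 CPM (0.429-fold, the 1 past 2-fold lower of 7 tertiary granule and secretory vesicle genes) and Lcn2 was 0.956-fold. Chil3 stood at 232 CPM in PBS and 608 CPM in cmExoaCD11b (2.62-fold, 95% interval 2.41 to 2.85), but its level in empty barcodes was 2292 and 5478 CPM.

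The target of the exosomes' antibody, Itgam, stood at 560.4 CPM in PBS and 390.4 CPM in cmExoaCD11b (0.697-fold, 95% interval 0.652 to 0.744). Of the 12 adhesion genes considered, Itgam among them, 0 were past 2-fold in either direction, beside 6.11% higher and 1.37% lower of all genes. In a list this short a count of 0 is close to those shares. The surface protein gene Cd177 stood at 264 and 155 CPM (0.586-fold) and the hyaluronan receptor Cd44 at 0.894-fold. Of 6 NADPH oxidase genes, which make the oxidative burst, 0 were past 2-fold, also close to the shares of all genes, and the catalytic subunit Cybb was 1.67-fold. Of 16 Fc and pattern recognition receptor genes 1 was higher, the high-affinity IgG receptor Fcgr1 (5.33 CPM in PBS and 21.1 CPM in cmExoaCD11b; 3.76-fold, 95% interval 2.32 to 7.19), a share close to the 6.11% of all genes. Fcgr4 was 1.54-fold, Fcgr3 0.728-fold, and Tlr2 1.37-fold.

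Of 10 genes linked to the suppression of T cells or to tumor support, 0 were past 2-fold in either direction, close to the 6.11% higher and 1.37% lower of all genes. Vegfa, the vascular growth factor, was 0.729-fold, and Tgfb1 lay just inside the threshold at 0.508-fold. Of 14 survival genes 1 was higher, the inflammatory caspase gene Casp4 (161 CPM in PBS and 349 CPM in cmExoaCD11b; 2.16-fold, 95% interval 1.95 to 2.4), and 2 were lower, both Bcl2a1 copies, beside 6.11% and 1.37% of all genes, while Mcl1, the main survival factor of neutrophils, was 1.02-fold. The 19 immediate early and heat shock genes, which respond to handling of cells as well as to signals in tissue, summed to 33357 and 31762 CPM (0.952-fold). Of these 0 were past 2-fold, beside the same shares of all genes. Among the maturation transcription factors Cebpb was level at 8428 and 7575 CPM.

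Some of the largest ratios belonged to genes of other cells. The 4 haemoglobin genes were among the 5 highest of all, with Hbb-bs at 15 CPM in PBS and 492 CPM in cmExoaCD11b (32.1-fold, 95% interval 24.4 to 45.1), found in 12 PBS and 73 cmExoaCD11b members, and with 41.2% of its cmExoaCD11b UMIs in 1 cell. Its level in empty barcodes was 29 and 268 CPM. The immunoglobulin genes Ighg3 and Ighg1 followed (22.9 and 19.9-fold), at 418 and 1921 CPM in the empty barcodes of cmExoaCD11b. Saa3, an acute-phase protein also among the 10 highest, stood at 33 CPM in PBS and 500.3 CPM in cmExoaCD11b (15-fold, 95% interval 12.4 to 18.7) and at 594 and 541 CPM in empty barcodes. It was higher in the Camp/Ngp/Ltf-high (9.02-fold) and Retnlg/Mmp8-low (3.71-fold) cells of cmExoaCD11b as well. The Retnlg/Mmp8-low cells held 243 and 903 CPM of Saa3 and the cells under the S100a8 and S100a9 threshold 283 and 632 CPM, so it was not confined to other cells. Of 6 monocyte genes 4 were past 2-fold higher, beside 6.11% of all genes, with Ms4a6c at 11.8-fold and Vcan at 7.58-fold, and with UMIs in 69 and 40 of the 1018 cmExoaCD11b members. F13a1, another of the 4, turned direction when cells were thinned to 1000 UMIs.

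Of 7 macrophage genes considered, 1 was past 2-fold higher and 2, C1qb and C1qc, were lower (0.432 and 0.267-fold), beside 6.11% and 1.37% of all genes. Summed over the list of 8, the empty barcodes stood at 5335 CPM in PBS and 909.6 CPM in cmExoaCD11b. The lowest ratios were those of Tmem267, with 74 and 1 UMIs and 95.9% of those in PBS in 1 cell, Ctsk, a protease of osteoclasts and macrophages, with 68.6% in 1 cell, and the platelet and macrophage chemokine Pf4 (52.6 CPM in PBS and 10.03 CPM in cmExoaCD11b, against 700.3 and 74.7 CPM in empty barcodes). The direction of Pf4 turned when 10% free RNA was subtracted. Because 10% of its free RNA level in PBS is above its level in the members, that turn does not show a reversal. The part of these genes in the differences of the neutrophil genes was not tested.

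Within the members, levels changed with Retnlg and Mmp8. Members of each library were divided into 4 bins of equal size by their percentage of UMIs on both genes, from 0.3% up to 0.603%, 1.23%, 3.06% and 9.77% in PBS and from 0.301% up to 0.771%, 1.67%, 3.41% and 8.80% in cmExoaCD11b. Cells of the top bin were deeper, with medians of 6670 against 3236 UMIs in PBS and 5603 against 2983 in cmExoaCD11b. From the bottom to the top bin, Ly6g stood at 33.5, 149.6, 241 and 649 CPM in PBS and at 78.4, 177, 424 and 826 CPM in cmExoaCD11b. Lcn2 was 4.72 and 3.46 times as high in the top as in the bottom bin, and Mmp9 2.55 and 2.92 times. Inflammatory and hypoxia genes ran the other way, with Ccl3 at 0.3 and 0.161 times, Il1b at 0.226 and 0.346 times and Hilpda at 0.225 and 0.238 times the bottom bin.

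The differences in the interferon-stimulated and the glycolysis and hypoxia lists were present in every bin. The interferon-stimulated list stood at 4676, 5714, 3806 and 3011 CPM in PBS and at 14039.9, 13263, 11094 and 10428 CPM in cmExoaCD11b, a ratio of 2.32 to 3.46 over the 4 bins. Isg15 was at 489, 545, 283 and 74.5 CPM in PBS and 2054, 2023, 1394 and 1138 CPM in cmExoaCD11b, so that its ratio was 4.2 in the bottom and 15.3 in the top bin. The glycolysis and hypoxia list stood at 15870.2, 12093, 9012 and 6129 CPM in PBS and 7386, 6243, 5244 and 4907 CPM in cmExoaCD11b, with ratios from 0.465 to 0.801. Other genes turned direction from bin to bin, with ratios from 0.442 to 1.31 for Tnf, 0.688 to 1.28 for Il1b, 0.702 to 1.17 for Cxcl2, 0.964 to 1.76 for Cxcr2 and 0.865 to 1.59 for Cd274. Whether the ratios differ between bins was not tested.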

How the data were processed

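The authors deposited, per the file headers, the count of UMIs per gene and barcode from Cell Ranger, neither normalized nor filtered, from 10x Genomics 3' libraries (v3.1 chemistry per the labels). The headers name Cell Ranger 7.1.0 and the study's methods 3.0.2, and the genome build is not given in the sources used here. The files held 67143628 UMIs over 644248 barcodes in PBS and 81288480 over 723594 in cmExoaCD11b, and list 32285 genes.

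Counts of the members were summed per library and divided by all their UMIs (CPM). Intervals are exact at the 95% level (Poisson for CPM, Clopper-Pearson for shares, conditional for ratios), cover counting error only, and were tested on simulated data. Ratios used 1 added UMI and genes with at least 50 UMIs, and past 2-fold counted as called. Shares of cells with a UMI were taken after thinning each cell to 1000 UMIs (seed 1). Barcodes of at most 100 UMIs gave the free RNA. Scrublet marked 0 barcodes in either library and so had not worked, and doublets were left in. Genes were named from the lists and as the 10 highest and lowest ratios of each comparison and the 10 with the most UMIs, and those chosen otherwise are marked. The members and lists were chosen with earlier results of these data known. The list members Sting1, Mb21d1, Clec7a and Ero1a had no row under these symbols, and some genes are not reported here. Python 3.11.15, numpy 2.4.6, scipy 1.17.1, scanpy 1.11.5 and matplotlib 3.10.9 were used.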

Additional observations from a re-analysis of the deposited data

Results flagged for a closer look

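Il6 pointed in opposite directions in the neutrophil classes. In the members its ratio of cmExoaCD11b to PBS was 2.16, and in the Camp/Ngp/Ltf-high cells it was 0.0870. The difference was not tested, and in the members 77.6% of the Il6 UMIs of cmExoaCD11b came from 1 cell. The ratio in the members also fell below 1, the direction of the Camp/Ngp/Ltf-high cells, under 3 alternatives given in the part on processing.

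Some barcodes of 500 to under 1000 UMIs, which the depth filter removed, met the rest of the rule. In PBS 7 of 431 such barcodes (1.62%, 95% Clopper-Pearson interval 0.655% to 3.32%) met the other conditions of the rule, and in cmExoaCD11b 31 of 536 did (5.78%, interval 3.96% to 8.11%), in the same direction as the share among deeper barcodes. Free RNA holds the rule genes too. In the barcodes of at most 100 UMIs, S100a9 stood at 36082 CPM in PBS and 39774 CPM in cmExoaCD11b, Retnlg at 2509 and 3632 CPM, and Camp, which the rule keeps low, at 12050.4 and 13368 CPM. The part of free RNA in these shares was not tested.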

How the results depend on the processing

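The members' share was 1.47 to 1.75 times higher in cmExoaCD11b under 10 changes of thresholds, depth or doublet removal, 1.24 times within the S100a8 and S100a9 compartment and 1.93 times without members that carried another cell type's marker, an alternative chosen after seeing the data, as was leaving out genes with at least 50% of their UMIs in 1 cell. Against 393 higher and 88 lower of 6429 genes, requiring 20 UMIs gave 698 and 190 of 8497, and requiring 200 gave 184 and 38 of 3478. A 1.5-fold threshold gave 1073 and 399 of the 6429, and thinning cells to 1000 UMIs gave 192 and 90 of 3290. Lower genes numbered 156 as means of per-cell shares, 147 with median-of-ratios scaling, which moved the median log2 ratio of all genes from 0.13 to 0.00, and 152 with 10% free RNA subtracted. Higher genes numbered 261 of 5029 without members that carried another marker. The interferon-stimulated median log2 ratio was 1.69 after thinning and 1.75 as per-cell means, with 27 to 31 of its genes past 2-fold under the changes of membership, depth, scaling and free RNA (it was not recomputed for other UMI minimums, added UMIs or fold thresholds), and the glycolysis and hypoxia median stayed between -0.67 and -1.12. Against Retnlg/Mmp8-low cells, a 1.5-fold threshold gave 314 higher and 841 lower of the 5705 genes. Thinning gave 47 higher and 80 lower, and removal of members with another marker 305 lower, of totals that were not recorded. Against Camp/Ngp/Ltf-high cells, a 1.5-fold threshold gave 1259 and 1078.

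Of 310 named genes, 100 were past 2-fold. Log2 ratios reversed for Cxcl9 (2.39 with S100a8 and S100a9 at 5%, 1.42 without other markers), Il6 (-1.14 with S100a8 and S100a9 at 5%, -1.22 with Retnlg and Mmp8 at 0.6%, -1.58 without other markers), Irf8 (-0.27 thinned, -0.38 without other markers), Psmb10 (-0.080 without other markers), Pf4 (3.05 with free RNA subtracted) and, when thinned, F13a1 (-0.077), Hbegf (0.59), Il7r (-1.22) and Tinagl1 (0.85). The cause was not tested. No paired analysis was possible because each group is 1 library of different mice, and for the same reason no replicate could be left out. Genes with few UMIs, such as Tmem173, Ifnb1 and Il12b, are limited by depth.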
